A study of Mus musculus with 12 samples.

Results

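The genes described here are 9 secreted factors by which mouse fibroblasts signal to leukocytes, to other stromal cells and to themselves: the CXC chemokines Cxcl1, Cxcl5 and Cxcl12, the CC chemokines Ccl2 and Ccl7, the interleukin-6 family cytokines Il6, Lif and Il11, and the growth factor Csf1. They were chosen by name, with earlier results of these data known, and matched by symbol, 9 of the 49671 genes that each library lists. All 9 passed the filter on low counts (more than 1 read in 3 or more of the 12 libraries), which left 18668 genes to test. The RNA came from NIH 3T3, an immortalized line of mouse fibroblasts, in 4 groups of 3 sequencing libraries. Control groups received a commercial negative control siRNA, and Lap2-depleted groups received 1 siRNA sequence against Tmpo, the gene of lamina-associated polypeptide 2 (Lap2), which targets its membrane-anchored and its nucleoplasmic isoforms. For each siRNA, one group was kept in 0.3% FBS (serum-starved) and the other was starved and then given 15% FBS for 45 min (serum-stimulated). All 12 libraries thus share the cell line, the transfection and the period in low serum. A single siRNA sequence was used, so effects of Lap2 loss and of that sequence on other transcripts cannot be told apart. The labels do not say that the replicates came from separate cultures, so the tests measure the spread between these libraries, which may be in part technical.

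Chemokines are small secreted proteins that attract leukocytes through receptors with several membrane spans, whereas Il6, Lif and Il11 bind a receptor subunit of their own and then share the signalling subunit gp130 (Il6st), which activates Stat3. Csf1 keeps macrophages alive through the receptor kinase Csf1r. Several of these genes belong to the early response of fibroblasts to serum: Cxcl1 and Ccl2 were first cloned, under the names KC and JE, as transcripts that growth factors raise in mouse 3T3 cells. The factors NF-kappa B and AP-1 are known to act on several of their promoters, and many of their transcripts are short-lived, since proteins such as Zfp36 and Zc3h12a direct their decay.

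The deposited values are HTSeq counts of reads per gene, with total counts of 18026298 to 26265253 per library. Levels below are normalized counts, in which each library was rescaled by its TMM factor to a common size, and a gene was called higher or lower with an adjusted p under 0.05 in edgeR's quasi-likelihood test (Benjamini-Hochberg over all genes tested). Tmpo, the target of the siRNA, stood at 2775, 2805 and 2885 normalized counts in the starved control libraries and at 982, 1175 and 1093 in the starved Lap2 siRNA libraries (log2FC -1.38 ± 0.08, SE; edgeR adjusted p = 8.7e-16). In 15% FBS the control libraries held 3264, 3243 and 3019 and those with Lap2 siRNA 767, 745 and 607 (log2FC -2.17 ± 0.08, SE; edgeR adjusted p = 3.8e-19). Of 9 fibroblast marker genes, none was at 0 in any library. Their summed level was 39542 to 45194 CPM (counts scaled to a common library size with the same TMM factors) over the control siRNA libraries. Over the Lap2 siRNA libraries it was 24375 to 32763 CPM. Lap2 siRNA in 0.3% FBS raised 2 of the 9 markers and lowered 6 (3 and 5 with total-count scaling and with DESeq2), where 17.8% of all genes tested were called higher and 18.6% lower. In 15% FBS it raised 0 and lowered 7 (2 and 6 with total-count scaling), and 2 were higher at an unadjusted p under 0.05. The shares over all genes there were 11.4% and 12.1%. The part of this lower sum in the differences below was not tested. The 8 myeloid marker genes summed to 4.09 to 5.92 CPM over the control siRNA libraries and to 6.96 to 8.55 CPM over the Lap2 siRNA libraries. Of these genes, Itgam was at 0 in all 12 libraries, Adgre1 and Cx3cr1 had at most 1 raw count, and Ptprc and Lyz2 had at most 10. Cd14 had 22 to 126 raw counts, Cd68 had 22 to 54 and Csf1r had 6 to 31. With Lap2 siRNA in 0.3% FBS, 2 of the 5 myeloid genes that could be tested were higher, Cd14 and Csf1r, and the part of their difference in the results below was not tested. The 4 endothelial genes summed to at most 1.78 CPM and the 4 epithelial genes to at most 1.11 CPM. Bulk RNA cannot tell fewer cells that transcribe a gene from less RNA per cell.

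Serum raised 8 of the 9 genes in control siRNA treated cells and lowered 1, Cxcl12. Over all genes tested, 15.6% were called higher and 13.9% lower in that comparison. In Lap2-depleted cells, 8 were called higher with serum and 0 lower, against 18.3% and 14.9% of all genes, and Cxcl12 was among those that rose while Cxcl5 did not pass the test. The count of 0 lower was also 0 at an unadjusted p under 0.05 in edgeR and with DESeq2. Lap2 siRNA in 0.3% FBS raised 6 of the 9 (Cxcl1, Cxcl5, Ccl2, Ccl7, Il11 and Csf1) and lowered Cxcl12, where 17.8% of all genes were called higher and 18.6% lower. In 15% FBS, Lap2 siRNA raised 4 (Cxcl5, Ccl7, Il11 and Csf1) and lowered 2 (Cxcl12 and Lif), where 11.4% of all genes were called higher and 12.1% lower. The serum response itself differed between the siRNAs for 4 genes: it was higher with Lap2 siRNA for Cxcl12 and smaller for Cxcl1, Ccl2 and Lif. Of all genes, 7.09% were called higher and 6.51% lower in this interaction. Tmpo itself was lowered more by Lap2 siRNA in 15% FBS than in 0.3% FBS, and the part of this in the interaction was not tested. The median log2FC of the 9 genes was 2.17 for serum with control siRNA and 2.22 with Lap2 siRNA, beside medians of all genes of -0.0090 and 0.0030. With Lap2 siRNA it was 0.82 in 0.3% FBS and 0.20 in 15% FBS, beside 0.01 and 0.02, and it was -0.56 for the interaction, beside 0.02. The comparisons share groups, so they are not independent of one another. The 9 genes were chosen with earlier results of these data known, so the shares and medians of all genes beside theirs do not test for an excess. Scaling to total counts instead of TMM shifted the median of all genes by -0.206 and -0.229 for serum stimulation and by 0.107 for Lap2 siRNA in 0.3% FBS. Under it Lif in 0.3% FBS, which was not called, changed sign (-0.02 to 0.09).

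**Figure D1:**
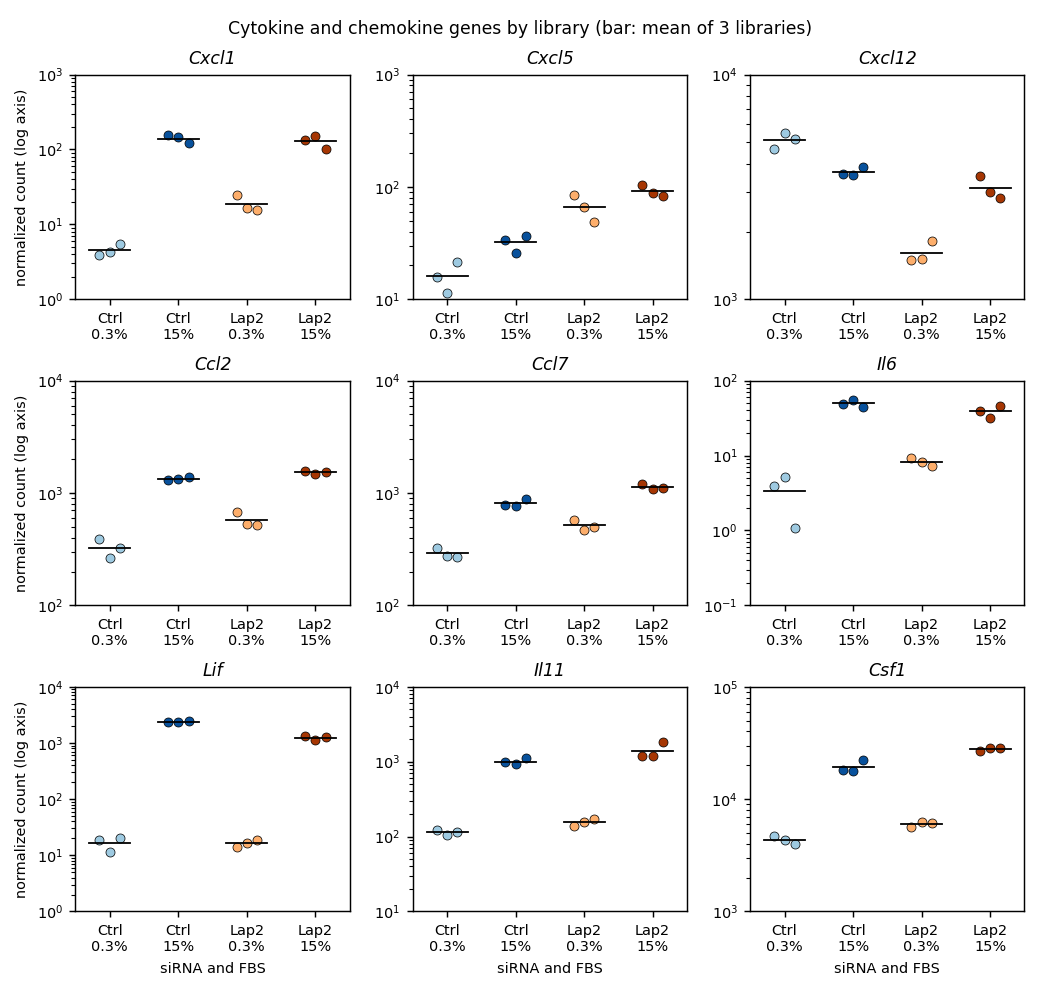
Normalized counts of the 9 genes (y axis, log scale, one panel per gene) in the 12 libraries, grouped by siRNA and FBS on the x axis; points are libraries and horizontal bars are means of 3. Lif climbs from 11.3 to 20.5 in starved control libraries to 2337 to 2421 after serum, whereas Cxcl12 falls from 4674 to 5473 to 3582 to 3893 with control siRNA and rises with Lap2 siRNA.

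Promoter sequences from RefSeq (GRCm38.p6, from 250 bases before to 50 bases after an annotated start) were found for 6 of the 9 genes. They show where the letters of 3 motifs lie in the genes that responded most to serum: the CArG box of SRF, the kappa B site of NF-kappa B, and the AP-1 site TGANTCA, each looked for on both strands. Ccl2, Ccl7 and Cxcl5 had no entry. Il11 had 2 entries, chr7:4778092-4778391 and chr7:4782808-4783107. A kappa B match was present in the promoters of Cxcl1, Il6 and Csf1 and an AP-1 match in those of Il6, Lif and Il11 (the first of its entries). The 7 promoter entries thus held 3 with a kappa B match, 3 with an AP-1 match and 0 with a CArG box. Among all 32851 promoters of the table, 4.51% held a kappa B match, 7.81% an AP-1 match and 1.63% a CArG box. In the following, the strand of the gene is read 5′ to 3′, and capitals mark the matches. Cxcl1 held a pair of overlapping kappa B matches, one on each strand, which begin 71 and 70 bases before the start. That of Il6 begins 44 bases before the start and that of Csf1, which is on the opposite strand, 154 bases before it. The AP-1 matches begin 249 bases before the start in Il6, 228 in Lif and 98 in Il11. Cxcl12 (chr6:117168285-117168584), the gene that serum lowered in control cells, held none of the 3 motifs in its window.
Cxcl1, chr5:90890995-90891294, plus strand: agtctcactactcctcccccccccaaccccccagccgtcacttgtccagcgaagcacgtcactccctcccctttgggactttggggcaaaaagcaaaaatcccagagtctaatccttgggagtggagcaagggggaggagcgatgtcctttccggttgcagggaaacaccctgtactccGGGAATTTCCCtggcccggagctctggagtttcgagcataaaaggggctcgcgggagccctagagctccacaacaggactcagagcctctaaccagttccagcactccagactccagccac
Il6, chr5:30012864-30013163, plus strand: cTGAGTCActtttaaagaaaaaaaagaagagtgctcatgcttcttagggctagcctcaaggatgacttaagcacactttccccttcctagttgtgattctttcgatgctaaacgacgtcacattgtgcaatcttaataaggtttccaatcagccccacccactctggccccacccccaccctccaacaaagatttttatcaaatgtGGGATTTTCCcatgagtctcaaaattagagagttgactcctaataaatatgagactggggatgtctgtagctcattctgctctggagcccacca
Csf1, chr3:107760420-107760719, minus strand: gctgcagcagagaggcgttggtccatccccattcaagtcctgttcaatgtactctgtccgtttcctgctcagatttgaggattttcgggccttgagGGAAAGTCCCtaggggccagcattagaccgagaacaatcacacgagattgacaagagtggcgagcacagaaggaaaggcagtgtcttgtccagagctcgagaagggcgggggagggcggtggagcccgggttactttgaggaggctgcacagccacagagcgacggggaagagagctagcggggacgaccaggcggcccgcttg
Lif, chr11:4257318-4257617, plus strand: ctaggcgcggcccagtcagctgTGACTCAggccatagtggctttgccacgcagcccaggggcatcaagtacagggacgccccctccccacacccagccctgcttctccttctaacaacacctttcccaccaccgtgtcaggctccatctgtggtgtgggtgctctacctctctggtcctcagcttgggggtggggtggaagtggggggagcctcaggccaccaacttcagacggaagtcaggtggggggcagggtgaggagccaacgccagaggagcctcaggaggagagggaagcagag
Il11, chr7:4778092-4778391, minus strand: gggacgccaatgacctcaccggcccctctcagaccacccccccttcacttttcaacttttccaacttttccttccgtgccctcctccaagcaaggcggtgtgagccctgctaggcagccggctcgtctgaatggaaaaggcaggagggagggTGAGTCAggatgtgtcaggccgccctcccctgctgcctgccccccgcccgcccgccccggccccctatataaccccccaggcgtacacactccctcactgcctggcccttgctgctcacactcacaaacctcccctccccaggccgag
A match describes letters only, and no binding was measured here.

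Among the CXC chemokines, Cxcl1 (ENSMUSG00000029380, GRCm38 chr5:90891241-90893115), which attracts neutrophils through Cxcr2, was close to silent in starved control cells and was raised by serum and by Lap2 siRNA. It had 4, 5 and 5 raw counts in the 3 starved control libraries, or 3.93, 4.33 and 5.39 normalized counts. After serum the control libraries held 154, 145 and 120.4. The groups were far apart, and the level rose 30.2-fold (log2FC 4.92 ± 0.29, SE; edgeR adjusted p = 1.1e-15). Starved Lap2-depleted cells held 24.8, 16.6 and 15.5 normalized counts, all above the starved controls, a rise of 4.15-fold (log2FC 2.05 ± 0.40, SE; edgeR adjusted p = 8.3e-05). After serum they held 133, 152 and 102, so that the stimulated groups overlapped, with a difference of -0.12 on the log2 scale (95% interval -0.48 to 0.23, edgeR adjusted p = 0.7). The serum rise in Lap2-depleted cells was therefore 6.68-fold (log2FC 2.74 ± 0.23, SE; edgeR adjusted p = 8.8e-12), and the difference between the responses was -2.18 ± 0.44 (SE, edgeR adjusted p = 0.00053).

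Cxcl5 (ENSMUSG00000029371, GRCm38 chr5:90759360-90761624), a neutrophil attractant that also acts on Cxcr2, lies on the same chromosome 129616 bases before Cxcl1. Its starved control libraries held 15.7, 11.3 and 21.6 normalized counts and its stimulated ones 33.7, 25.7 and 36.8. It was higher in both Lap2 siRNA groups, with 85.4, 66.6 and 48.4 in 0.3% FBS and 104, 89.1 and 82.1 in 15% FBS, and neither Lap2 siRNA group overlapped its control group. Lap2 siRNA raised it 4.19-fold in 0.3% FBS (log2FC 2.07 ± 0.28, SE; edgeR adjusted p = 2.2e-07) and 2.85-fold in 15% FBS (log2FC 1.51 ± 0.24, SE; edgeR adjusted p = 1.1e-05). Serum raised it 2.00-fold in control cells (log2FC 1.00 ± 0.30, SE; edgeR adjusted p = 0.011), a call that was lost without starved control replicate 2 (log2FC 0.80, edgeR adjusted p = 0.075). In Lap2-depleted cells the serum difference was 0.45 (95% interval -0.0026 to 0.90, edgeR adjusted p = 0.13), and it was called without starved Lap2 siRNA replicate 1 (log2FC 0.65, edgeR adjusted p = 0.035). The test of the difference between the responses gave -0.56 (95% interval -1.32 to 0.21, edgeR adjusted p = 0.39).

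Cxcl12 (ENSMUSG00000061353, GRCm38 chr6:117168535-117181367), the stromal chemokine that holds and recruits cells carrying Cxcr4, differed in direction from the other 8 genes in control cells. Starved control cells held 4674, 5473 and 5156 normalized counts, the highest level of the 4 groups. With serum the control libraries dropped to 3610.5, 3582 and 3893 (log2FC -0.47 ± 0.08, SE; edgeR adjusted p = 1.2e-05). Starved Lap2-depleted cells held 1497, 1508 and 1817, below every control library and 3.18-fold lower than in starved control cells (log2FC -1.67 ± 0.08, SE; edgeR adjusted p = 3.1e-17). Serum raised the level in these cells to 3521, 3015 and 2813, a 1.94-fold rise (log2FC 0.95 ± 0.08, SE; edgeR adjusted p = 1.7e-11). The direction of the serum response was thus opposite with the 2 siRNAs, and the difference was 1.42 ± 0.11 (SE, edgeR adjusted p = 4.7e-11). In 15% FBS the Lap2 siRNA libraries lay just under the controls (log2FC -0.25 ± 0.08, SE; edgeR adjusted p = 0.02). That call was lost with total-count scaling (log2FC -0.16, edgeR adjusted p = 0.13) and without stimulated control replicate 3 (-0.20), stimulated Lap2 siRNA replicate 2 (-0.22) or stimulated Lap2 siRNA replicate 3 (-0.19), with adjusted p of 0.11, 0.09 and 0.13.

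The CC chemokines Ccl2 (ENSMUSG00000035385, GRCm38 chr11:82035571-82037453) and Ccl7 (ENSMUSG00000035373, GRCm38 chr11:82045712-82047525) attract monocytes through Ccr2 and are neighbours, with 8258 bases between them. Serum raised both with either siRNA, and Lap2 siRNA raised both in starved cells. Ccl2 stood at 389.6, 262 and 321 normalized counts in starved control cells and at 1295, 1328 and 1384 after serum, a 4.13-fold rise (log2FC 2.05 ± 0.10, SE; edgeR adjusted p = 2e-17). In Lap2-depleted cells it stood at 673, 526 and 514 and at 1574, 1488 and 1528, a 2.67-fold rise (log2FC 1.42 ± 0.10, SE; edgeR adjusted p = 9.7e-14). The starved Lap2 siRNA libraries were all above the starved controls (log2FC 0.82 ± 0.11, SE; edgeR adjusted p = 1.4e-07). The stimulated ones were also all above their controls, by 0.20 (95% interval 0.0074 to 0.39), which missed the threshold (edgeR adjusted p = 0.14) but passed it with total-count scaling (0.28, adjusted p = 0.02) and in a fit of these groups alone (0.19, adjusted p = 0.014). Its serum response was smaller with Lap2 siRNA, a difference of -0.63 ± 0.14 (SE, edgeR adjusted p = 0.002). A gene annotated on the opposite strand of Ccl2, Gm17268, had 0 counts in all 12 libraries.

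Ccl7 stood at 325, 276 and 272 normalized counts in starved control cells and at 786, 768 and 887 after serum (log2FC 1.48 ± 0.09, SE; edgeR adjusted p = 8.8e-15). With Lap2 siRNA it stood at 573, 471 and 499 and at 1197, 1090.1 and 1097 (log2FC 1.13 ± 0.09, SE; edgeR adjusted p = 2.3e-12). No group overlapped another, and Lap2 siRNA raised Ccl7 1.77-fold in 0.3% FBS (log2FC 0.82 ± 0.10, SE; edgeR adjusted p = 1.7e-08) and 1.39-fold in 15% FBS (log2FC 0.47 ± 0.09, SE; edgeR adjusted p = 6.9e-05). The difference between its serum responses, -0.35 (95% interval -0.62 to -0.09, edgeR adjusted p = 0.067), passed the threshold with total-count scaling, with DESeq2, and without starved control replicate 1 or starved Lap2 siRNA replicate 2 (adjusted p = 0.047, 0.039, 0.020 and 0.028). The ratio of Ccl2 counts to Ccl7 counts was 1.11 ± 0.140 (SD, n = 3) in starved control cells and 1.11 ± 0.0723 in starved Lap2-depleted cells. After serum the ratio was 1.65 ± 0.0848 in control cells and 1.36 ± 0.0395 in Lap2-depleted cells, with libraries of 1.56 to 1.73 and of 1.32 to 1.39. These ranges do not overlap, and the two-sided exact permutation p of 0.1 is the smallest that 3 against 3 libraries allow. Of the chemokine genes within 120000 bases of the pair, Ccl8 had 12 to 78 raw counts, Ccl11 had 5 to 30, and Ccl12 had at most 2. Around Cxcl5 and Cxcl1, within 60000 bases, Cxcl3 and Cxcl15 had 0 counts in all 12 libraries, Pf4 and Cxcl2 had at most 1, and Ppbp had at most 11.

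The interleukin-6 family held the gene with the steepest response. Lif (ENSMUSG00000034394, GRCm38 chr11:4257557-4272514), which keeps mouse embryonic stem cells undifferentiated through Lifr and gp130, had 19, 13 and 19 raw counts in the starved control libraries and 2668, 2363 and 2171 after serum. In normalized counts this was 18.6, 11.3 and 20.5 against 2367, 2337 and 2421, a rise of 143-fold (log2FC 7.16 ± 0.13, SE; edgeR adjusted p = 4.3e-30). By log2FC Lif ranked 8 among the 10449 genes whose normalized counts averaged 100 or more. In starved Lap2-depleted cells it stood at 13.8, 16.6 and 18.5, within the range of the starved controls (log2FC -0.02, 95% interval -0.59 to 0.54, edgeR adjusted p = 0.98). After serum the Lap2-depleted cells reached 1331, 1128 and 1259, below every stimulated control library and at 52.2% of their mean (log2FC -0.94 ± 0.08, SE; edgeR adjusted p = 1.8e-11). Its serum rise with Lap2 siRNA was 75.8-fold (log2FC 6.24 ± 0.14, SE; edgeR adjusted p = 1e-27), again rank 8 of 10449. The difference between the responses, -0.92 ± 0.29 (SE, edgeR adjusted p = 0.031), rests on starved counts of 13 to 19. It was lost without starved control replicate 2 (log2FC -0.71, adjusted p = 0.14), starved Lap2 siRNA replicates 2 or 3 (adjusted p = 0.068 and 0.11) or stimulated Lap2 siRNA replicate 2 (adjusted p = 0.051).

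Il6 (ENSMUSG00000025746, GRCm38 chr5:30013114-30019981), an inducer of the acute phase response, had few reads in starved cells. The starved control libraries held 4, 6 and 1 raw reads and the starved Lap2 siRNA libraries 10, 8 and 7. After serum the control libraries held 55, 56 and 40 reads and the Lap2 siRNA libraries 34, 30 and 48. Serum raised it 13.6-fold in control cells (log2FC 3.77 ± 0.40, SE; edgeR adjusted p = 2.5e-09) and 4.69-fold in Lap2-depleted cells (log2FC 2.23 ± 0.36, SE; edgeR adjusted p = 6.3e-06). In 0.3% FBS the normalized counts with Lap2 siRNA, 9.18, 8.32 and 7.21, were all above the controls, 3.93, 5.20 and 1.08, but the difference of 1.20 (95% interval 0.13 to 2.26) missed the threshold (edgeR adjusted p = 0.073). It passed with total-count scaling (1.31, adjusted p = 0.046) and without starved control replicate 2 (1.66, adjusted p = 0.045). In 15% FBS the groups overlapped (log2FC -0.34, 95% interval -0.92 to 0.24), and the difference between the serum responses, -1.54 (95% interval -2.75 to -0.33), was not called (edgeR adjusted p = 0.087).

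Il11 (ENSMUSG00000004371, GRCm38 chr7:4772373-4782859), a cytokine linked to fibrosis, rose with serum with both siRNAs. It went from 124, 106 and 115 to 985, 919 and 1111 normalized counts in control cells (log2FC 3.13 ± 0.14, SE; edgeR adjusted p = 1.1e-18). In Lap2-depleted cells it went from 139.6, 157 and 174 to 1186, 1179 and 1849 (log2FC 3.17 ± 0.14, SE; edgeR adjusted p = 2.6e-19), where the third library stood well above the other 2. The difference between the responses was 0.04 (95% interval -0.38 to 0.46). Lap2 siRNA raised Il11 1.36-fold in 0.3% FBS (edgeR adjusted p = 0.035) and 1.40-fold in 15% FBS (edgeR adjusted p = 0.0014). The call in 15% FBS was lost without stimulated Lap2 siRNA replicate 3 (log2FC 0.22, adjusted p = 0.098). The call in 0.3% FBS was lost without starved control replicates 2 or 3 (adjusted p = 0.11 and 0.063) or starved Lap2 siRNA replicates 2 or 3 (adjusted p = 0.054 and 0.11).

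Csf1 (ENSMUSG00000014599, GRCm38 chr3:107741048-107760469), the growth factor of macrophages, was read most of the 9 after serum. Its normalized counts were 4678, 4339 and 4002 in starved control cells and 18310.5, 17728 and 22423 after serum (log2FC 2.17 ± 0.08, SE; edgeR adjusted p = 7.3e-22). With Lap2 siRNA they were 5659, 6209 and 6112 and 26808, 28401 and 28635 (log2FC 2.22 ± 0.08, SE; edgeR adjusted p = 4.7e-22). Lap2 siRNA raised it 1.38-fold in 0.3% FBS (log2FC 0.47 ± 0.07, SE; edgeR adjusted p = 4.7e-06) and 1.43-fold in 15% FBS (log2FC 0.52 ± 0.07, SE; edgeR adjusted p = 1.3e-06), with no overlap of libraries in either serum. The difference between its serum responses was 0.05 (95% interval -0.16 to 0.27), the narrowest interval of the 9 genes.

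**Figure D2:**
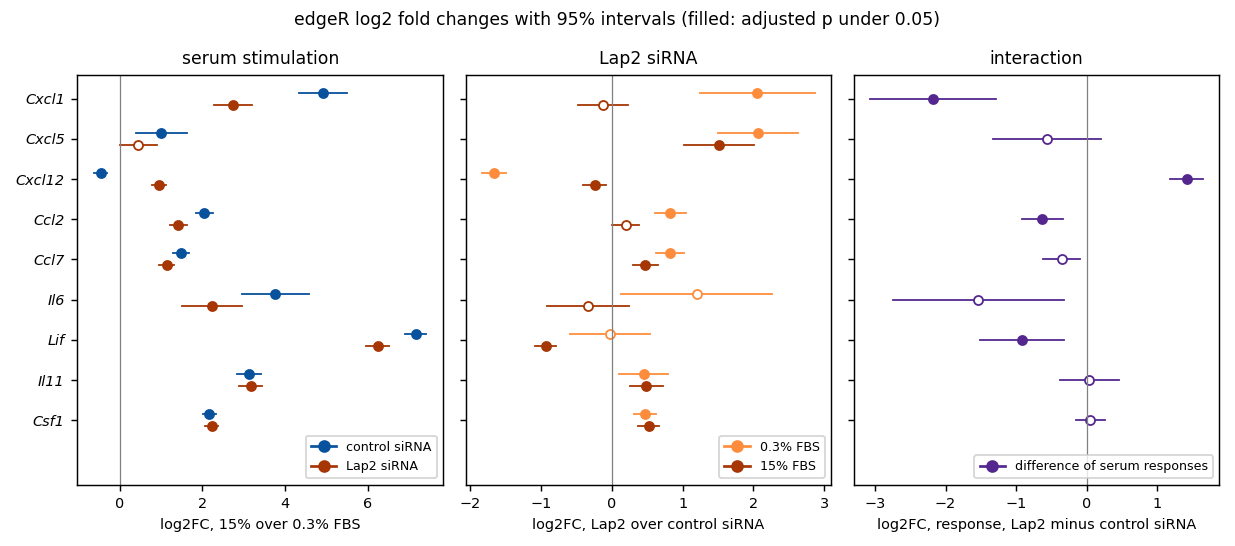
log2 fold changes (x axis) of the 9 genes (y axis) with 95% intervals, not adjusted for multiple testing, for serum stimulation with each siRNA (left), for Lap2 siRNA in each serum (middle) and for the interaction, the serum response with Lap2 siRNA minus that with control siRNA (right); filled points have an adjusted p under 0.05. Cxcl12 is the gene whose serum response lies on opposite sides of 0, at -0.47 and 0.95, and the interaction of Cxcl1 is the furthest below 0, at -2.18.

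To put the 9 genes in order of level, length was taken into account, as CPM per kilobase of the union of annotated exons. Csf1 was the most abundant in every group, at 39.0 ± 3.04 CPM per kilobase (SD, n = 3) in starved control cells, 175 ± 23.0 after serum, 53.8 ± 2.64 in starved Lap2-depleted cells and 251 ± 8.92 after serum. In starved control cells it was followed by Cxcl12 (29.6 ± 2.33), then by Ccl7 (17.2 ± 1.75) and Ccl2 (13.5 ± 2.67), whose libraries overlapped, and by Il11 (2.62 ± 0.205) and Cxcl5 (0.412 ± 0.132). Lif (0.183 ± 0.0532), Cxcl1 (0.115 ± 0.0192) and Il6 (0.0664 ± 0.0412) closed the order, each overlapping the next. After serum, Ccl2 (55.7 ± 1.86) stood above Ccl7 (48.1 ± 3.79) in control cells, followed by Lif (25.9 ± 0.463), and then Il11 (22.9 ± 2.22) and Cxcl12 (21.4 ± 0.998), whose libraries overlapped. Cxcl1 (3.53 ± 0.436) came next, and Il6 (0.969 ± 0.106) and Cxcl5 (0.816 ± 0.146) overlapped at the bottom. In starved Lap2-depleted cells Ccl7 (30.4 ± 3.12) and Ccl2 (23.8 ± 3.69) overlapped and stood above Cxcl12 (9.32 ± 1.05), which was second in the starved control cells. Il11 (3.57 ± 0.393), Cxcl5 (1.70 ± 0.471) and Cxcl1 (0.479 ± 0.129) followed, apart from each other, and Lif (0.178 ± 0.0262) and Il6 (0.161 ± 0.0193) overlapped. In stimulated Lap2-depleted cells Ccl7 (66.8 ± 3.54) and Ccl2 (63.8 ± 1.81) overlapped, and Il11 (32.0 ± 8.77), Cxcl12 (18.1 ± 2.11) and Lif (13.5 ± 1.12) stood apart in that order. Cxcl1 (3.26 ± 0.628) and Cxcl5 (2.33 ± 0.284) overlapped above Il6 (0.765 ± 0.142). With the longest transcript as the length, Cxcl12 (31.1) moved above Lif (28.0) and Il11 (24.4) in stimulated control cells. With that length Csf1 and Cxcl12 overlapped in starved control cells, and Il11 (34.2) and Cxcl12 (26.3) overlapped in stimulated Lap2-depleted cells.

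**Figure D3:**
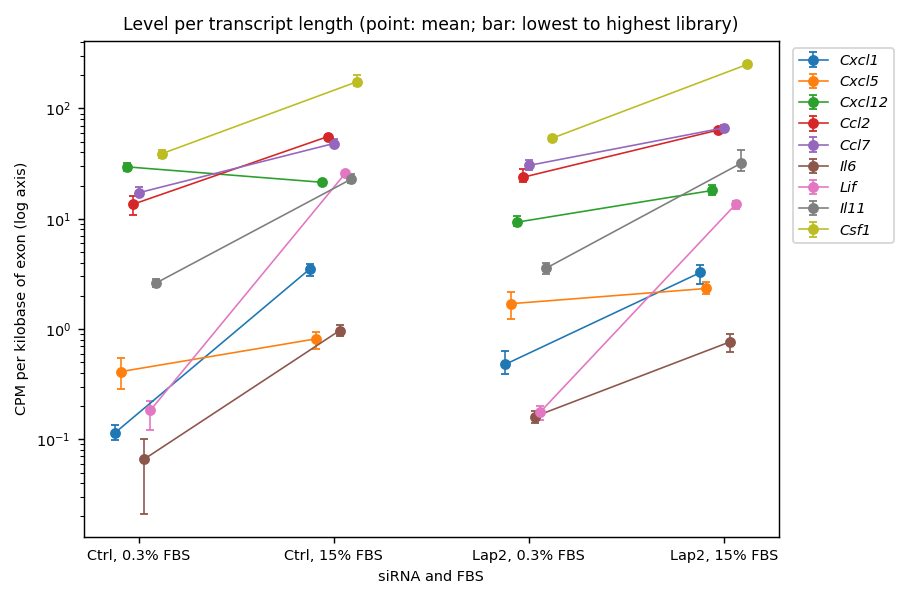
Level of the 9 genes in CPM per kilobase of exon (y axis, log scale) in the 4 groups (x axis); points are means of 3 libraries, vertical bars run from the lowest to the highest library, and lines join the sera of one siRNA. Csf1 lies on top in every group, from 39.0 to 251, and Lif passes Cxcl5, Il11 and Cxcl12 between 0.3% and 15% FBS with control siRNA.

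For each of the 9 genes, the genes with the most similar pattern were taken by the root mean square (RMS) difference between the 4 group means of log2 CPM, each gene centred on its own mean, among the 10449 genes whose mean over all libraries reached 100 normalized counts. All genes share the same 12 libraries, and likeness in 4 means is a description only. The log2 CPM were taken with a prior count of 2. This damps the pattern of genes with few reads, such as Cxcl1 and Il6 in starved cells. Cxcl1 lay nearest to Dusp6, a phosphatase that switches off ERK, and to Tnfrsf12a, the receptor of Tnfsf12 (RMS 0.162 and 0.170 log2 units). Il6 lay nearest to Fhl2 and Id1 (0.0980 and 0.115), and Ccl2 to Id3 and Tiparp (0.0895 and 0.0993). Ccl7 was nearest to Tnfaip2 and the Wnt receptor gene Fzd7 (0.0876 and 0.102), Il11 to Klf9 and Snai1 (0.0690 and 0.0891), and Csf1 to Pvr and the hexokinase gene Hk2 (0.0993 and 0.109). Cxcl12 was nearest to Rgcc and Hic1 (0.0659 and 0.0797). The likeness was weaker for Lif, with Errfi1, an inhibitor of the EGF receptor, and Thbs1 (0.197 and 0.232), and for Cxcl5, with Mustn1 and the BMP antagonist Grem1 (0.267 and 0.326). Among the 9 genes themselves, the nearest pair was Ccl2 and Ccl7 (0.238).

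Receptors for these ligands were described from a list of 16 genes. The leukocyte chemokine receptors were at or near 0: Cxcr4, Ackr1, Ccr1, Ccr2 and Ccr3 had 0 counts in all 12 libraries, which over 253763818 counts allows up to 3 counts, or 0.0119 CPM. Cxcr1, Cxcr2 and Ackr2 had at most 7 raw counts in any library. Of the 9 receptors tested, 0 were higher and 2 lower with serum in control cells, and 4 were higher and 0 lower with serum in Lap2-depleted cells (3 and 2 with total-count scaling, 3 and 1 with upper-quartile scaling). Both counts of 0 were also 0 at an unadjusted p under 0.05 in edgeR and with DESeq2. Over all genes, 15.6% were higher and 13.9% lower with serum in control cells, and 18.3% and 14.9% in Lap2-depleted cells. Lap2 siRNA raised 3 and lowered 3 in 0.3% FBS (17.8% and 18.6% of all genes), and raised 3 and lowered 1 in 15% FBS (11.4% and 12.1% of all genes), so that the 1 of 9 lower was at the share of all genes. Il6ra, the Il6-binding subunit, had 408 to 436 normalized counts in starved control libraries and 896 to 1018 in starved Lap2 siRNA libraries (log2FC 1.22 ± 0.08, SE; edgeR adjusted p = 1.2e-13). In 15% FBS its ranges were 417 to 502 and 926 to 977 (log2FC 1.03 ± 0.08, SE; edgeR adjusted p = 1.9e-11), so in neither serum did the groups overlap. Il6st (gp130) moved the other way, from a mean of 10612 to 6415 in 0.3% FBS (log2FC -0.73 ± 0.08, SE; edgeR adjusted p = 1.9e-09) and from 11144 to 8811 in 15% FBS (log2FC -0.34 ± 0.08, SE; edgeR adjusted p = 0.00092). Lifr rose with Lap2 siRNA in both sera (log2FC 0.28 and 0.32, edgeR adjusted p = 0.022 and 0.015).

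In starved cells Lap2 siRNA also lowered Il11ra1, the receptor of Il11 (log2FC -0.74 ± 0.08, SE; edgeR adjusted p = 1.9e-09), and Osmr, the oncostatin M receptor (log2FC -0.64 ± 0.08, SE; edgeR adjusted p = 5.9e-08). In 15% FBS their log2FC was -0.11 and 0.13, and neither was called (edgeR adjusted p = 0.39 and 0.24), although Osmr was called higher with total-count scaling (0.22, adjusted p = 0.031). The serum responses of Osmr, Il11ra1 and Il6st were all higher with Lap2 siRNA, by 0.77, 0.64 and 0.39 (edgeR adjusted p = 5.2e-06, 8.2e-05 and 0.012). Ackr3, which binds and clears Cxcl12, went from a mean of 1125 to 909.8 normalized counts with serum in control cells (log2FC -0.31 ± 0.07, SE; edgeR adjusted p = 0.00091) and from 1202 to 1592 in Lap2-depleted cells (log2FC 0.40 ± 0.07, SE; edgeR adjusted p = 1.8e-05). Its serum response thus had the same pair of directions as that of its ligand, with a difference of 0.71 ± 0.10 (SE, edgeR adjusted p = 3.3e-06). Csf1r, which also served as a myeloid marker, had 6 to 31 raw counts per library. It was called higher with Lap2 siRNA in 0.3% FBS (log2FC 1.46 ± 0.44, SE; edgeR adjusted p = 0.0085), with means of 8.43 and 23.5 normalized counts.

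**Figure D4:**
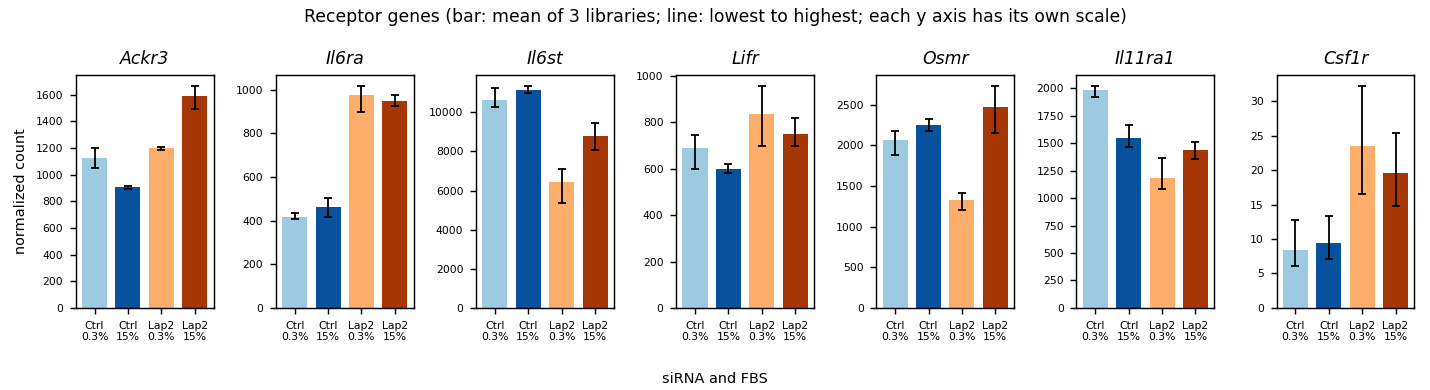
Normalized counts (y axes, from 0, each panel with its own scale) of the 7 receptor genes above 5 counts in every library, by siRNA and FBS (x axes); bars are means of 3 libraries and lines run from the lowest to the highest library. Il6ra is higher in both Lap2 siRNA groups (means of 975 and 945 against 418 and 463), whereas Il6st is lower in both.

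A list of 32 other chemokine genes held 11 that were tested, and 10 had 0 counts in all libraries. With serum, 2 rose and 2 fell in control cells, where 15.6% of all genes rose and 13.9% fell. In Lap2-depleted cells 3 rose and 0 fell (1 and 3 with total-count scaling), against 18.3% and 14.9% of all genes. Cx3cl1, the membrane-bound chemokine fractalkine, was the most frequently read of them and rose from a mean of 919 to 2073 normalized counts in control cells (log2FC 1.17 ± 0.07, SE; edgeR adjusted p = 2e-15) and from 808 to 2021 in Lap2-depleted cells (log2FC 1.32 ± 0.07, SE; edgeR adjusted p = 1.4e-16). Ccl9 also rose with serum, by 1.05 in control cells and by 0.65 in Lap2-depleted cells (edgeR adjusted p = 0.00041 and 0.019), and the second call was lost with total-count scaling (adjusted p = 0.13) and with upper-quartile scaling (adjusted p = 0.057). Ccl27a fell with serum in control cells by 0.89 on the log2 scale (edgeR adjusted p = 0.0013). Lap2 siRNA raised 2 and lowered 4 of the 11 in 0.3% FBS (3 and 2 with total-count scaling), where 17.8% of all genes were higher, close to 2 of 11, and 18.6% lower. It raised 2 and lowered 0 in 15% FBS, where 11.4% and 12.1% of all genes did so. Both counts of 0 lower were also 0 at an unadjusted p under 0.05 in edgeR and with DESeq2. Ccl25 rose with Lap2 siRNA in both sera (log2FC 0.93 ± 0.17 and 0.73 ± 0.17, SE; edgeR adjusted p = 2.5e-05 and 0.0012).

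Of 33 other cytokine genes, 22 were tested. Clcf1, a further ligand that signals through gp130, rose with serum from a mean of 609 to 1846 normalized counts in control cells (log2FC 1.60 ± 0.09, SE; edgeR adjusted p = 2.9e-16) and from 653 to 1803 in Lap2-depleted cells (log2FC 1.47 ± 0.09, SE; edgeR adjusted p = 3.6e-15). Kitl, the ligand of Kit, was lower with Lap2 siRNA in 0.3% and 15% FBS by 1.14 and 0.72 on the log2 scale (edgeR adjusted p = 9.1e-14 and 7e-09), and Tnfsf12 by 1.57 and 0.91 (edgeR adjusted p = 8.1e-11 and 7.5e-06). In all, 2 of the 22 rose and 1 fell with serum in control cells (2 and 6 with total-count scaling), and 6 rose and 3 fell in Lap2-depleted cells (3 and 4), beside 15.6% and 13.9% of all genes in control cells and 18.3% and 14.9% in Lap2-depleted cells. Lap2 siRNA raised 5 and lowered 5 in 0.3% FBS, against 17.8% and 18.6% of all genes, and raised 2 and lowered 4 in 15% FBS (1 and 5 with DESeq2), against 11.4% and 12.1%. The 5 and 5 of 22 in 0.3% FBS and the 2 of 22 raised in 15% FBS were near these shares. The serum response of Il17d was higher with Lap2 siRNA (log2FC 1.04 ± 0.31, SE; edgeR adjusted p = 0.019) and that of Mif was lower (log2FC -0.67 ± 0.14, SE; edgeR adjusted p = 0.00078).

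Regulators of cytokine genes were described from a list of 25 (NF-kappa B and its inhibitors, AP-1, Egr1, Stat3, Cebp and RNA decay factors), and all 25 were tested. Serum raised 21 and lowered 1 in control cells, and raised 22 and lowered 1 in Lap2-depleted cells, beside 15.6% and 13.9% of all genes in control cells and 18.3% and 14.9% in Lap2-depleted cells. The steepest in control cells were Atf3 and Fosl1, members of the AP-1 family of factors, and Egr1, with log2FC of 5.71, 5.40 and 5.31 (edgeR adjusted p = 1.7e-27, 4e-29 and 4.6e-30). In Lap2-depleted cells they were Junb, Egr1 and Atf3, at 4.94, 4.93 and 4.93 (edgeR adjusted p = 1.2e-32, 3.4e-29 and 1.2e-26). Lap2 siRNA raised 9 and lowered 11 of the 25 in 0.3% FBS, where 17.8% of all genes were higher and 18.6% lower. It raised 6 and lowered 8 in 15% FBS (11.4% and 12.1% of all genes), a split that became 10 and 6 with total-count scaling and 6 and 10 with DESeq2. In starved cells Lap2 siRNA raised Fosl1, from a mean of 149 to 456 normalized counts (log2FC 1.62 ± 0.11, SE; edgeR adjusted p = 1.7e-13), and Atf3 (log2FC 0.90 ± 0.18, SE; edgeR adjusted p = 0.00014), and lowered Nfkbie, an inhibitor of NF-kappa B (log2FC -1.48 ± 0.13, SE; edgeR adjusted p = 8.3e-11).

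After serum, Tnfaip3 (A20), which NF-kappa B induces and which restrains it, reached a mean of 400.1 normalized counts with control siRNA and 153 with Lap2 siRNA (log2FC -1.39 ± 0.14, SE; edgeR adjusted p = 1.9e-09). Nfkb2 was also lower with Lap2 siRNA in 15% FBS (log2FC -0.64 ± 0.06, SE; edgeR adjusted p = 2.2e-09), whereas Zfp36l1, which directs the decay of cytokine transcripts, was higher (log2FC 0.62 ± 0.08, SE; edgeR adjusted p = 1.8e-07). The interaction was called higher for 8 and lower for 6 of the regulators, beside 7.09% and 6.51% of all genes. Fosl1 and Tnfaip3 responded less to serum with Lap2 siRNA, with differences of -1.81 and -1.48 (edgeR adjusted p = 2.4e-11 and 1e-05), and Zfp36l1 responded more, with a difference of 0.96 (edgeR adjusted p = 1.2e-07).

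Transfected double-stranded RNA can set off RNA sensing and interferon genes, and 13 genes of that response were listed. All 12 libraries came from cells that received an siRNA, and there was no untransfected group. The comparisons of Lap2 siRNA with control siRNA thus cannot show whether transfection set off this response in both. Lap2 siRNA raised 0 of the 11 tested in either serum. It lowered 6 in 0.3% FBS (4 with total-count scaling, 5 with upper-quartile scaling, 4 with DESeq2), where 17.8% of all genes were higher and 18.6% lower. In 15% FBS it lowered 0, where those shares were 11.4% and 12.1% and a count of 0 among 11 is close to them. With serum, 0 rose and 2 fell in control cells (0 and 5 with total-count scaling, 0 and 4 with upper-quartile scaling, 0 and 1 with DESeq2), beside 15.6% and 13.9% of all genes. In Lap2-depleted cells 3 rose and 0 fell (3 and 2 with total-count scaling, 3 and 1 with upper-quartile scaling), beside 18.3% and 14.9%. At an unadjusted p under 0.05 in edgeR these counts of 0 were still 0 for a rise with Lap2 siRNA in 0.3% FBS and with serum in control cells. They were 1 higher and 2 lower for Lap2 siRNA in 15% FBS, and 1 lower with serum in Lap2-depleted cells, and DESeq2 gave 0 for each. Isg15 fell from a mean of 101 to 46.0 normalized counts in 0.3% FBS (log2FC -1.12 ± 0.20, SE; edgeR adjusted p = 3.6e-05). It responded more to serum with Lap2 siRNA (log2FC 1.41 ± 0.28, SE; edgeR adjusted p = 0.00047). Ddx58, a sensor of double-stranded RNA, was lower by 0.19 on the log2 scale in 0.3% FBS (edgeR adjusted p = 0.043), a call that was lost with the other scalings (adjusted p = 0.42 with total counts and 0.059 with upper-quartile factors) and with DESeq2 (adjusted p = 0.059). Ifnb1 had 0 counts in all 12 libraries. With total-count scaling 1 of the 11 genes, Eif2ak2, was called higher with Lap2 siRNA in 15% FBS (log2FC 0.28, edgeR adjusted p = 0.0062).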

How the data were processed

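The authors aligned reads of rRNA-depleted, directional libraries of total RNA to mm10 with TopHat2 (in Chipster, default settings) and counted reads per gene with HTSeq, and the deposited values are these counts, not normalized. Versions and the strand setting of the counting are not given in the sources used here, so where 2 genes overlap on opposite strands their reads may be mixed. The methods name DESeq, and the submitters' processing notes name DESeq2, for the authors' own tests.

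The labels gave each library's condition and a running number from 1 to 12. Replicates were numbered 1 to 3 in that order within each group. The 45 min come from the study's methods. Symbols and lengths came from GENCODE M21 (GRCm38), and 99.31% of the 49671 gene identifiers had a symbol. No pair of libraries was identical (0 pairs). Counts were analysed in R 4.3.3 with edgeR 4.0.16: TMM, 1 mean per group over all 12 libraries, glmQLFit and glmQLFTest, a count above 1 in at least 3 libraries (18668 genes), Benjamini-Hochberg, threshold 0.05. The 5 contrasts were serum with either siRNA, Lap2 siRNA at either serum level, and the interaction. Intervals at 95% are unadjusted. In a self-test on simulated counts (Lap2 siRNA in 15% FBS, 18098 genes), edgeR called 99% of 200 genes given a log2FC of 1, and 6 of the rest. The 200 were drawn from genes with a mean above 50 normalized counts, and no other gene was changed. The self-test thus does not cover genes with fewer reads, such as Il6, or data with many changed genes. Total counts were 18026298 to 26265253. Standard errors, which include the spread between libraries as edgeR estimates it, were about 0.08 for Csf1 and Cxcl12 and larger for genes with few reads. An upper limit for 0 counts (3 counts) covers counting error only.

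The 9 genes, the gene lists and the tests were chosen with earlier results of these data known. Named besides the 9 are Tmpo, marker genes, up to 3 genes per list and contrast with the largest absolute log2FC (adjusted p under 0.05, mean of at least 50 normalized counts), and the 2 genes most like each of the 9. Lifr, Csf1r, Cxcr1, Cxcr2, Ackr2, Eif2ak2, Ifnb1 and the genes neighbouring the chemokines in the genome are named outside this rule, after their values were seen. Alternatives were total-count and upper-quartile scaling, DESeq2 1.42.0, 3 other filters on low counts, fits of only the groups compared, a replicate block, each library left out, and the longest transcript as length. Tables and figures used Python 3.11.15 (pandas 2.3.3, matplotlib 3.10.9). Promoters came from RefSeq (GRCm38.p6). Values of some listed genes are not reported here. Other data types of the study were not analysed here.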

Additional observations from a re-analysis of the deposited data

Results flagged for a closer look

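The responses of 4 of the 9 genes to serum differed between the siRNAs by a test of the difference itself, the interaction in edgeR. Over all genes tested, 7.09% were called higher and 6.51% lower in it. Values are log2 differences, the response with Lap2 siRNA minus that with control siRNA. Cxcl12 differed by 1.42 ± 0.11 (SE, edgeR adjusted p = 4.7e-11), and it fell with serum in control cells and rose in Lap2-depleted cells. Cxcl1 differed by -2.18 ± 0.44 (SE, edgeR adjusted p = 0.00053), Ccl2 by -0.63 ± 0.14 (SE, edgeR adjusted p = 0.002) and Lif by -0.92 ± 0.29 (SE, edgeR adjusted p = 0.031), and these rose with serum with both siRNAs. The call of Lif rests on starved counts of 13 to 19. It was lost in some fits with 1 library left out (edgeR adjusted p up to 0.14). Single libraries far from their group could not be tested with 3 libraries per group.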

How the results depend on the processing

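Of 346 values of the 9 genes under settings that kept all libraries, 339 kept their direction and their side of the threshold, and of 540 with 1 library left out, 512 did. With total-count scaling Lif in 0.3% FBS reversed to 0.087 (not called in either). The genes called lower with Lap2 siRNA in 15% FBS numbered 1 instead of 2 with total-count scaling, where Cxcl12 was lost, and ranged from 1 to 2 with each library left out. Values that changed sign with 1 library left out were not called: they ranged from -0.24 to 0.15 for Lif in 0.3% FBS, from -0.26 to 0.010 for Cxcl1 with Lap2 siRNA in 15% FBS, from -0.22 to 0.15 for the interaction of Il11 and from -0.027 to 0.17 for that of Csf1. The cause of these changes was not tested. Counts over all genes moved by more than 1.5 times with total-count scaling, where serum raised 1632 and lowered 5847 in control cells (2915 and 2597 with TMM) and raised 1658 and lowered 5951 in Lap2-depleted cells (3420 and 2777), and Lap2 siRNA in 15% FBS raised 3471 (2125). The interaction was called higher for 852 genes without starved control replicate 2 (1324 with all libraries) and lower for 1973 without starved Lap2 siRNA replicate 1 (1216). Libraries given the same replicate number did not deviate together (correlations of -0.122 to 0.0991 over 18 pairs, 0 above 0.1), so these numbers were not taken to pair the libraries. A replicate block changed no call of the 9 genes (8 higher and 1 lower with serum in control cells, 8 and 0 in Lap2-depleted cells, 6 and 1 with Lap2 siRNA in 0.3% FBS, 4 and 2 in 15% FBS, 1 and 3 for the interaction) and moved the interaction from 1324 to 1321 genes higher and from 1216 to 1232 lower. Depth limits Il6 and Cxcl1 in starved cells, with 1 to 6 counts per control library.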

Other observations

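Genes beside the 9 that were chosen after their values were seen showed patterns of their own. Csf3, which encodes the granulocyte growth factor G-CSF, had 0 counts in the 3 starved control libraries and 15 to 25 after serum. The stimulated control cells thus held at least 20.4-fold more than a limit of 3 counts over the starved control group allows. Lap2-depleted cells had at most 3 counts of Csf3 per library in 0.3% FBS and 3 to 13 in 15% FBS, and the difference between the siRNAs in 15% FBS was not called (edgeR adjusted p = 0.087).

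Ccl8, a monocyte attractant in the gene cluster of Ccl2 and Ccl7, had 11.8 to 17.3 normalized counts in starved control libraries and 49.4 to 71.6 in starved Lap2 siRNA libraries (log2FC 2.02 ± 0.30, SE; edgeR adjusted p = 1.4e-06). It was also higher with Lap2 siRNA in 15% FBS (log2FC 1.09 ± 0.30, SE; edgeR adjusted p = 0.0068), and it was not called with serum in control cells (log2FC 0.40, edgeR adjusted p = 0.45). Ccl11, which attracts eosinophils and lies in the same cluster, had fewer reads with Lap2 siRNA in 0.3% FBS (log2FC -1.52 ± 0.48, SE; edgeR adjusted p = 0.011), with means of 18.2 and 6.28 normalized counts. Cd14, a co-receptor for bacterial lipopolysaccharide that served as a myeloid marker, was higher with Lap2 siRNA in both sera (log2FC 1.51 ± 0.20, SE; edgeR adjusted p = 2e-07 and log2FC 0.81 ± 0.18, SE; edgeR adjusted p = 0.00064) and rose with serum in control cells (log2FC 1.12 ± 0.21, SE; edgeR adjusted p = 5.4e-05). Of the other myeloid markers, Csf1r was also called higher with Lap2 siRNA in 0.3% FBS (log2FC 1.46 ± 0.44, SE; edgeR adjusted p = 0.0085), Cd68, with 22 to 54 raw counts, was not called in either serum (log2FC -0.02 and -0.10, edgeR adjusted p = 0.96 and 0.86), and Itgam, Adgre1 and Cx3cr1 had 1 raw count or less in each library.

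Among the fibroblast markers, Col3a1 and Pdgfra were lower with Lap2 siRNA in 0.3% FBS (log2FC -1.67 ± 0.07, SE; edgeR adjusted p = 1.6e-18 and log2FC -1.61 ± 0.09, SE; edgeR adjusted p = 2.3e-16). Of the 9 markers, the interaction was called higher for 2 and lower for 2, beside 7.09% and 6.51% of all genes tested. The serum responses of Col3a1 and Pdgfra were higher with Lap2 siRNA than with control siRNA, by 0.79 and 1.20 on the log2 scale (edgeR adjusted p = 4.3e-07 and 5.8e-09). Those of Fn1 and Thy1 were lower (log2FC -0.61 and -0.38, edgeR adjusted p = 6.6e-05 and 0.0075). Fn1, which encodes fibronectin, went the other way from Col3a1 and Pdgfra in 0.3% FBS, where Lap2 siRNA raised it (log2FC 0.37 ± 0.07, SE; edgeR adjusted p = 9.2e-05), and it rose with serum in control cells (log2FC 0.41 ± 0.07, SE; edgeR adjusted p = 3.6e-05) and fell with serum in Lap2-depleted cells (log2FC -0.20 ± 0.07, SE; edgeR adjusted p = 0.033).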
